A study of Arabidopsis thaliana with 4 samples.

Results

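The regions described are short runs of 2 or 3 neighbouring array probes with a high ratio between DNA precipitated with an antibody against histone H3 trimethylated at lysine 4 (H3K4me3) and input DNA. The chromatin came from untreated Arabidopsis thaliana seedlings (ecotype Col-0) that were 10 days old and had been kept in liquid MS medium under long days. A probe was called high where its log ratio, centred on the replicate median and averaged over both ChIP replicates, was 1 log unit or more. The runs were thus chosen by the same values that are described below, and no test is given for those values. Probes were put in the order of their IDs, which give a probe set (TA, TB or TC), a plate and a well, after leaving out plates TA21 to TA51 and TC17 to TC30. This gave 973 narrow runs with 2282 probes, out of 17357 probes with a value in the 182 plates used and 21691 probes with a value in the whole table.

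All material came from a single condition, so there is no treated or mutant group, and the only repeats are ChIP replicates I and II. Each replicate was hybridised as a dye-swapped pair of arrays against its own input, and since both arrays gave one and the same value at all 21691 probes, each pair was counted once and n = 2 throughout. The labels do not say whether the replicates were separate cultures. The antibody came from Upstate. Whole seedlings were used, so that fewer cells with the mark and less of the mark per cell cannot be told apart.

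H3K4me3 is a mark of active genes. In Arabidopsis it is written by SET-domain methyltransferases such as ATX1 and SDG2, removed by Jumonji-domain demethylases such as JMJ14, and bound by proteins with a PHD finger. It is known to lie over the promoter-proximal part and the first part of the body of transcribed genes, and to be scarce over silent repeats. ChIP on an array averages the mark over sheared fragments and over the length of each probe, so the width of a run is counted here in probes.

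The direction of the deposited ratios is not given in the sources used here, nor are their log base and centring. The name H3K4me3 domain holds for these runs only if the ratio is that of precipitated over input DNA, and they are therefore called narrow high runs. The medians subtracted in centring were -1.91 log units (replicate I) and -0.90 (replicate II). Turning the sign of every value gave 71 narrow runs in place of 973. The IDs were not placed in the genome here, so runs are named by their probes and have no gene names or sequences.

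Of the 1862 high runs, 973 (52.3%) held 2 or 3 probes, 571 (30.7%) were single high probes and 318 (17.1%) were broad runs of 4 or more. Of the 4439 high probes, which were 25.6% of the 17357 probes, 2282 (51.4%) lay in narrow runs, 1586 (35.7%) in broad runs and 571 (12.9%) stood alone. The share in narrow runs was 32.3% with the sign turned and 39.3% with runs 1 probe apart joined. Among the narrow runs, 637 (65.5%) held 2 probes and 336 (34.5%) held 3. Members made up 10.3% of the TA probes, 14.5% of the TB probes and 17.3% of the TC probes, while all high probes made up 19.7%, 28.5% and 33.5%. Their share among high probes was alike in the sets, with 670 of 1282 in TA, 1390 of 2727 in TB and 222 of 430 in TC, and these shares were not compared by a test.

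The height of a run, its mean over probes and replicates, had a median of 1.99 log units (quartiles 1.66 and 2.36, n = 973 runs) and went from 1.03 to 4.07. In the separate replicates the median height was 1.96 in I and 2.02 in II. Runs of 3 probes had a median height of 2.07 (quartiles 1.78 and 2.38) and runs of 2 probes one of 1.93 (1.61 and 2.33), so the quartile ranges largely overlapped. For comparison, broad runs had a median height of 2.05 (1.83 and 2.29) and single high probes one of 1.68 (1.31 and 2.12). The highest probe of a run had a median of 2.32 in runs of 2, 2.75 in runs of 3 and 2.91 in broad runs. A maximum over more probes is higher by construction. The median height was 2.00 in TA, 1.97 in TB and 2.04 in TC, so the sets differed in how many narrow runs they held and little in how high these stood.

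**Figure D1:**
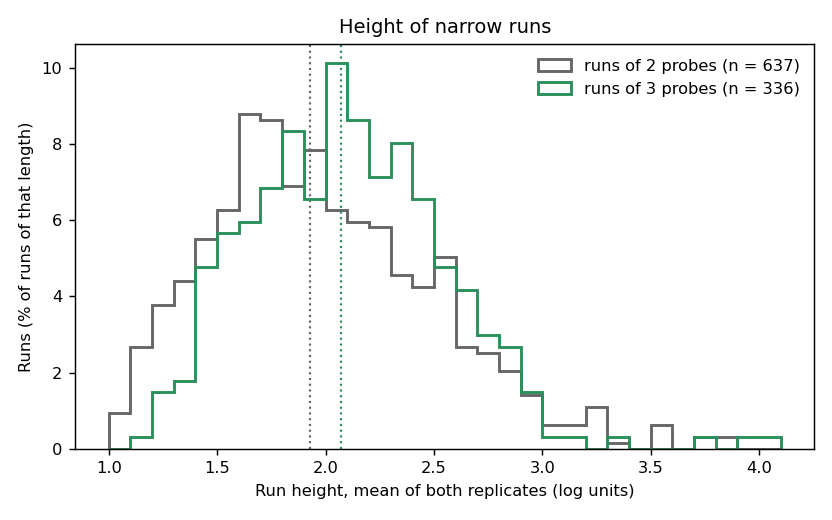
Histogram of the height of narrow runs (x axis, mean of both replicates in log units, from 1) as a percentage of the runs of the same length (y axis), for 637 runs of 2 probes and 336 runs of 3; dotted lines mark the medians. The distributions overlap over most of their range, with medians of 1.93 and 2.07, and few runs stand over 3 log units.

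The 8 highest narrow runs included 3 runs of 3 probes and 5 of 2. The first, TA17B11 to TA17C01, stood at 2.34 log units in I and 5.79 in II. Its probes held 3.33, 3.48 and 0.21 in replicate I and 3.92, 7.16 and 6.30 in replicate II. The last of them, TA17C01, was thus high only in replicate II, and in replicate I this run held only 2 high probes.

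The second, TB16A08 to TB16A10, was high in both replicates at every probe. Replicate I gave 3.74, 4.66 and 2.09 along the run, and replicate II gave 4.32, 6.53 and 2.18. Its bounding probes, the neighbours on either side, lay at 0.54 and 0.40 in replicate I and at 0.11 and 0.19 in replicate II. The run therefore rose from a neighbour under 1, peaked at the middle probe and fell back under 1 within 2 steps in both replicates.

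The 5 runs of 2 probes among them were high in both replicates at every probe. TC12B07 to TC12B08 stood at 3.64 in replicate I and 4.09 in II, TB83F11 to TB83F12 at 3.78 and 3.93, and TA92F11 to TA92F12 at 3.70 and 3.83. TB29B03 to TB29B04 stood at 3.46 and 3.96, and TB71G12 to TB71H01, which continues over the end of a plate row, at 3.59 and 3.57. TB85C02 to TB85C04, the remaining run of 3 probes, was much higher in replicate II, with 2.71 against 4.84.

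**Figure D2:**
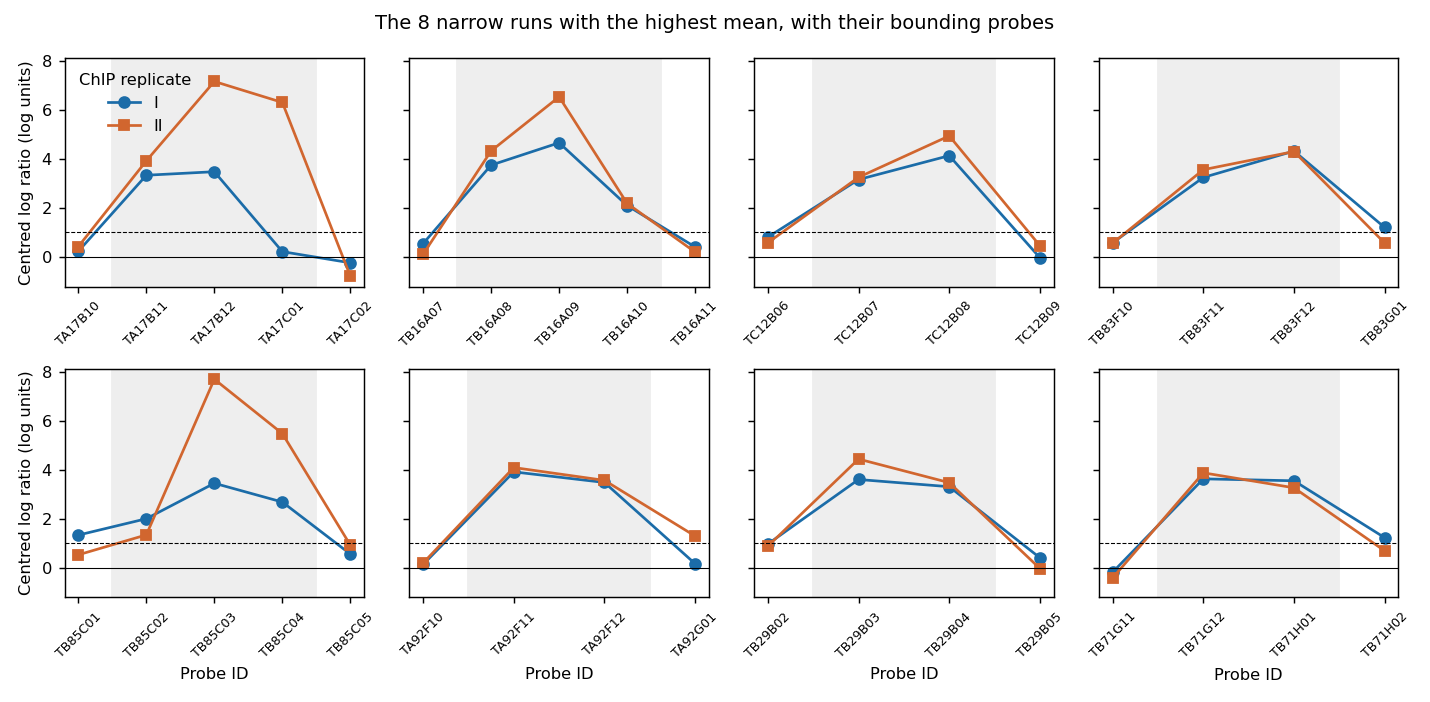
Centred log ratio (y axis, log units) of each probe of the 8 narrow runs with the highest mean (shaded) and of the probe on either side, in ChIP replicate I (blue circles) and II (orange squares); the dashed line is the threshold of 1. TA17B11 to TA17C01 and TB85C02 to TB85C04 stand apart by their replicate II values of 7.16 and 7.70, and every member of the 5 runs of 2 probes is above the threshold in both replicates.

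Runs of 3 probes were mostly peaked. The middle probe was the highest in 217 of 336 runs (64.6%) and the lowest in 19 (5.65%), while 49 runs rose and 51 fell steadily in ID order. By place, the medians over these runs were 1.77, 2.53 and 1.80 log units for replicate I and 1.80, 2.58 and 1.80 for II. The middle probe exceeded the mean of the outer probes by a median of 0.63 in I and 0.77 in II, and it did so in both replicates in 250 runs (74.4%). A peaked form is favoured by the way runs are cut out, since the outer probes stand next to probes under 1. The same probe was the highest in both replicates in 274 of the 336 runs (81.5%).

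Runs of 2 probes had no preferred side. The first probe was the higher in 312 of 637 (49.0%) and the second in 325, and the replicates placed the higher value on the same probe in 555 runs (87.1%). The median difference between the probes was 0.62 log units (quartiles 0.29 and 1.08), and it was 1 or more in 184 runs (28.9%). The probe outside the higher member had a median of 0.35 and the probe outside the lower member one of 0.21. In 372 of the 637 runs (58.4%) the outside probe was higher on the side of the higher member.

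Widths taken at 50% of each run's own peak differed from the widths at the threshold. In runs of 2 probes, 515 (80.8%) still had 2 neighbouring probes at that level, 88 (13.8%) had 1, and 34 had 3 or more. In runs of 3 probes, 188 (56.0%) had 3 such probes, 120 (35.7%) had 2, 24 (7.14%) had 1 and 4 had 4 or more. By construction, a run with a peak of at most 2 log units keeps all its probes at this level, since each stands at 1 or more. Only a run with a peak under 2 can gain probes. The lower quartile of the peak was 1.86 in runs of 2 probes and 2.31 in runs of 3. The 50% level is counted from 0, which the centring sets, and these widths were not recomputed under another centring.

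**Figure D3:**
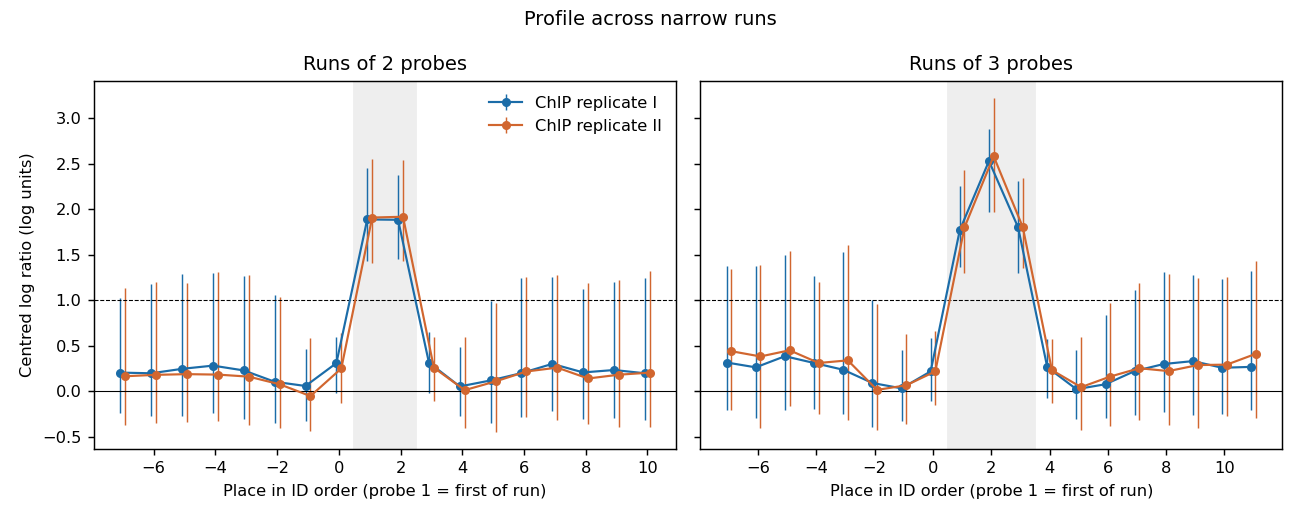
Median centred log ratio (y axis, log units) by place in ID order (x axis, probe 1 is the first of the run) across runs of 2 probes (left) and 3 probes (right), in ChIP replicate I (blue) and II (orange); bars are quartiles over 637 and 336 runs, shading marks the run, and the dashed line is the threshold of 1. Runs of 3 peak at the middle probe, with medians of 2.53 and 2.58, and the medians outside fall lowest 2 to 3 probes from the run.

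By the rule each bounding probe lay under 1 and each member at 1 or more, so some drop at the edges is given. The 1946 bounding positions had a median of 0.27 log units (quartiles -0.04 and 0.60), with 0.29 in replicate I and 0.24 in II. Of them 531 (27.3%) were under 0, 623 (32.0%) stood between 0.5 and 1, and 133 (6.83%) between 0.9 and 1. The medians were 0.26 on the side of lower IDs and 0.28 on the other side. Over the runs, 450 of 973 (46.2%) had both bounding probes under 0.5, 423 (43.5%) had a shoulder of 0.5 to 1 on 1 side and 100 (10.3%) had one on both sides. Single high probes had shoulders more often, with 40.8% of their bounding positions between 0.5 and 1, and broad runs about as often, with 33.8%. No test of these differences is given, since the classes are cut from the same values.

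The drop from the run height to the mean of the bounding probes had a median of 1.76 log units (quartiles 1.37 and 2.16). Its median was 1.70 in I and 1.78 in II, and it was above 0 in 973 runs in I and in 971 in II. After TA17B11 to TA17C01 and TB16A08 to TB16A10, with drops of 4.16 and 3.61, came TA06C01 to TA06C02 with 3.57. That run stood at 2.35 in replicate I and 3.10 in II, while its right-hand neighbour TA06C03 lay at -1.75 and -1.05, far under the median in both replicates. TB98C04 to TB98C05, with 2.87 and 3.69, dropped by 3.52 on average to neighbours that lay at -0.30 and 0.01 in replicate I and at -0.29 and -0.40 in II. TC12B07 to TC12B08 dropped by 3.42 on average.

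At the other end were runs that barely stood out from their surroundings. TB17C05 to TB17C06, at 1.24 in replicate I and 1.03 in II, lay only 0.18 above the mean of its neighbours, and these exceeded 1 in replicate I. TA75D04 to TA75D05 stood at 1.68 in replicate I but at 0.62 in II, with a drop of 0.22. TA75F08 to TA75F09, with 1.31 and 1.11, dropped by 0.24 on average. TB64C04 to TB64C05, at 1.497 and 0.91, had a drop of 0.44 and lies beside a well with no value, and TB97E09 to TB97E10, at 1.35 and 1.17, had one of 0.45. All 5 had a height under 1.3, against a median of 1.99 over all narrow runs. A small drop to neighbours under 1 allows no great height, so this follows from how they were picked.

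The threshold cut through a continuum. The members just inside it were TB28H12 with 0.64 in replicate I and 1.36 in II, TB90D03 with 1.18 and 0.83, and TB46F03 with 1.02 and 0.98. The bounding probes just outside it were TB71D02 with 1.58 and 0.41, TC05D03 with 1.254 and 0.74, and TA67F06 with 1.095 and 0.90. All 6 probes were above 1 in one replicate and under 1 in the other, which a mean this close to 1 gives almost by construction. In all, 148 members lay between 1 and 1.1, and 123 different bounding probes lay between 0.9 and 1.

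Most member probes were high in each replicate by itself. A value of at least 1 was reached by 2161 of the 2282 members (94.7%) in replicate I, where 25.9% of all 17357 probes reached it. In replicate II it was reached by 2121 (92.9%), against 26.8% of all probes. Both replicates reached it at 2000 members (87.6%), against 22.1% of all probes. The mean that chose the members is made of these values, so nothing is read from these counts. Every probe was high in both replicates in 716 of the 973 runs (73.6%), and no probe was in 14 (1.44%), all of them runs of 2. Among the single high probes 134 of 571 (23.5%) were not high in both.

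Run heights in the replicates were related but not equal. Over the 973 runs, which share the same arrays and were chosen on their mean, Pearson's r was 0.66 and Spearman's rho 0.68. The difference of I minus II had a median of -0.04 log units (quartiles -0.36 and 0.22, SD 0.47), and 531 runs (54.6%) were higher in II. It reached 1 log unit in 35 runs (3.60%), of which 33 were higher in replicate II, against 66 of 571 single high probes (11.6%) and 13 of 318 broad runs (4.09%). A mean over several probes varies less than a single value by construction. At the level of single probes the SD of I minus II was 0.59 for members, 0.62 for probes of broad runs and 0.72 for single high probes.

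The run TB59H06 to TB59H07 was high in replicate II alone, with -0.05 in I against 2.72 in II. The other runs with the largest gaps between replicates were TA17B11 to TA17C01, TB85C02 to TB85C04 and TA71C09 to TA71C10, the last with 1.30 in I against 3.25 in II. All 4 were higher in replicate II. On plates TA01 to TA10 the median of I minus II was -0.45 over 18 runs on odd plates and -0.24 over 29 on even plates. Of the 35 runs that differed by at least 1 log unit, 0 lay on these plates. Over the 926 runs outside plates TA01 to TA10 Pearson's r was again 0.66.

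**Figure D4:**
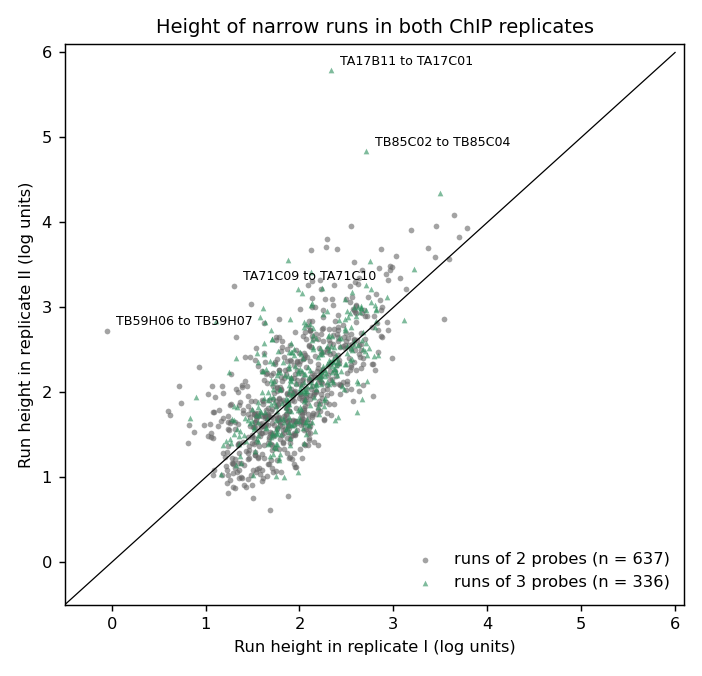
Height of each narrow run in ChIP replicate I (x axis) and II (y axis), both in log units, for runs of 2 probes (grey circles) and 3 probes (green triangles); the line marks equal heights. Points follow the line loosely (Pearson's r 0.66), and the 4 labelled runs, all far above the line, have the largest differences between the replicates.

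The replicates also allow a reading that the choice did not use, by finding runs in one and reading them in the other. With replicate I alone, 1004 runs of 2 or 3 probes were found. Read in replicate II they had a median height of 1.94 log units (quartiles 1.53 and 2.43), and their bounding probes one of 0.22. Their height in II exceeded the mean of their bounding probes in 998 of 1004 runs (99.4%). In replicate II, 2019 of their 2357 probes (85.7%) reached 1, and so did 261 of their 2008 bounding probes. Over all probes the share was 26.8%, which is no base for either kind. The members were chosen at 1 or more in replicate I, and the bounding probes under 1. The 99.4% of runs is favoured by this choice as well, and it was not computed for other high runs. Of all 4500 probes at 1 or more in replicate I, 3834 also reached 1 in II. This share is close to the 85.7% of probes in the narrow runs, so that value is not particular to them. A base for the bounding count comes from the 17357 probes, of which 4649 reached 1 in replicate II. Of these, 3834 also reached 1 in I, and the rest were under 1 in I. That rest was a smaller share of all probes under 1 in I than the 261 were of the 2008 bounding probes. This difference was not tested.

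The reverse reading gave like values. The 942 runs found in replicate II had a median height of 1.94 in replicate I (1.57 and 2.28), with bounding probes at 0.28, and 928 (98.5%) stood above their neighbours. Of their probes 86.6% reached 1 in replicate I, as did 226 of their 1884 bounding probes. The 25.9% of all probes is again no base for either kind, since both were chosen by their values in replicate II. The 98.5% of runs is again favoured by this choice. Of all 4649 probes at 1 or more in replicate II, 3834 also reached 1 in I, a share somewhat below the 86.6%. For the bounding probes, 4500 probes reached 1 in replicate I, and those of them outside the 3834 were under 1 in II. They were a smaller share of all probes under 1 in II than the 226 were of the 1884 bounding probes. This difference was not tested either. The peaked form was also read across replicates, which shows how far they gave the same form. It cannot separate the form from the way runs are cut out, since the outer probes still stand beside probes mostly under 1. Of the 222 runs of 3 probes that peaked in the middle in replicate I, 196 (88.3%) did so in II, and of the 203 that did in II, 182 (89.7%) did so in I. Over all 349 runs of 3 probes found in I, 216 (61.9%) were highest in the middle in II.

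The extent of the runs was also read in each replicate alone and at other thresholds, from the same values that chose them. Of the 973 runs, 735 (75.5%) had the same probes in replicate I alone and 704 (72.4%) in replicate II alone. In replicate I, 122 others formed a different run of 2 or 3, 61 were part of a run of 4 or more, 49 kept a single high probe and 6 kept none. In replicate II these counts were 105, 65, 91 and 8. Both replicates separately gave the same probes in 528 runs (54.3%). When the threshold was lowered to 0.75 log units, 162 of the 973 runs (16.6%) became part of a run of 4 or more. When it was raised to 1.5, 464 (47.7%) kept their probes, 320 (32.9%) shrank to a single probe and 66 (6.78%) had no high probe left.

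Farther from the runs, values were lowest 2 to 3 probes away. At 2 probes from the run the median was 0.03 log units on the side of lower IDs and 0.02 on the other, and at 3 probes it was 0.07 and 0.10, against 0.13 over all 17357 probes. At 5 probes it had risen to 0.26 and 0.25. The share of high probes was 13.5% and 14.9% at 2 probes, 24.5% and 23.5% at 3, and 30.4% and 29.6% at 5, against 25.6% of all probes. The rule sets the probe next to the run under 1, so the share at 2 probes is one taken after a probe that was not high. Among all 12917 probes that were not high and had a next probe, that next probe was high at 14.4%, close to these shares. At 2 probes the medians were 0.07 and 0.04 beside single high probes and 0.07 and 0.11 beside broad runs.

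The nearest high run of any kind was a median of 3 probes away (quartiles 1 and 4), and it was at most 3 probes away for 624 of 973 runs (64.1%), beside 64.4% of single high probes and 67.9% of broad runs. Only 1 probe lay between for 253 runs (26.0%), against 158 of 571 single high probes (27.7%) and 111 of 318 broad runs (34.9%). Such single probes between high runs had a median of 0.51 log units where at least 1 neighbour was narrow, and 101 of these 196 (51.5%) stood at 0.5 or more. Joining runs that were 1 probe apart left 746 narrow runs. The nearest run was a median of 3 probes away in TA, 3 in TB and 2 in TC.

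The share of sides on which the next high run began, among those that had not yet met one, was highest after 3 to 5 probes, while the most frequent single gap was 1 probe. Counted from both sides of every narrow run, it began after 1 probe in 276 of 1945 cases (14.2%) and after 2 in 258 of the 1669 that got so far (15.5%). After 3, 4 and 5 probes the shares were 18.6%, 18.2% and 18.5% of the sides that reached them, after 6 to 13 probes they lay between 13.1% and 15.95%, and after 14 to 20, where 215 sides or fewer were left, between 6.78% and 13.97%. The share over all probes that were not high was 14.4%. Sides of neighbouring runs are counted from each run, so these counts are not independent, and the rise was not tested. Single high probes gave 14.7% after 1 probe, 13.3% after 2, 19.8% after 3, 17.5% after 4 and 17.1% after 5. Broad runs gave 19.5%, 15.04%, 18.6%, 22.9% and 15.8% at these gaps, with no such plateau.

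**Figure D5:**
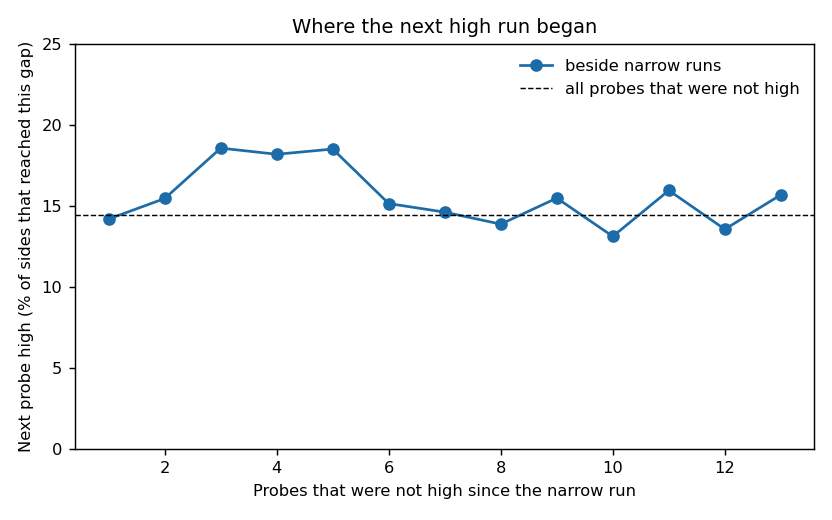
Share of sides of narrow runs (y axis, percent of the sides that reached this gap) on which the next probe was high, by the number of probes that were not high since the run (x axis); the dashed line is the share over all probes that were not high, 14.4%. The share lies at 18.2 to 18.6% after 3 to 5 probes and at 13.1 to 15.95% after 6 to 13, the longest gap plotted.

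Neighbouring runs were of the same kinds as high runs in general. Of the 1945 neighbours of narrow runs, 1070 (55.0%) were narrow, 547 (28.1%) single and 328 (16.9%) broad, beside 52.3%, 30.7% and 17.1% of all high runs. The midpoints of successive narrow runs with no other high run between them were a median of 6.5 probes apart. Their heights were nearly unrelated, with a Pearson's r of 0.07 over 535 pairs of runs, which share arrays and often a run with the next pair. The median height was 1.96 for the 253 runs with a neighbour 1 probe away and 2.01 (quartiles 1.69 and 2.38) for the 50 runs with at least 10 probes that were not high on each side.

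The most isolated narrow runs lay on plate TA54. TA54B10 to TA54B11 had 40 and 37 probes that were not high on its sides and stood at 2.68 log units in I and 2.96 in II. TA54F01 to TA54F02, the next high run after it, had 37 and 57 such probes and stood at 2.98 and 2.40. TA86D12 to TA86E01, with 29 on each side, stood at 2.23 and 2.20, and TA08G12 to TA08H01, with 31 and 25, at 1.83 and 2.17. All 4 were high in both replicates at every probe.

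Narrow runs were spread over nearly all plates. A plate held the start of a median of 5 (quartiles 4 and 7), from 0 on 5 plates to 12 on plate TB45. Steps inside narrow runs crossed a plate end in 20 of 1309 cases (1.53%) and a row end in 126 (9.63%), beside 1.04% and 8.35% of all 17355 steps, so runs went on from plate to plate and row to row. Members were 12.3 to 12.7% of probes in odd plate rows and 13.5 to 14.0% in even rows. The median of I minus II over all probes also followed these well classes, from -0.04 in odd rows and odd columns to 0.15 in even rows and even columns. Its part in the shares of members was not tested.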

How the data were processed

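The authors' deposited table gives 1 log ratio per array and probe, treated here as log2 although no base is stated, and values are called log units. No source used here gives their normalisation or software. Arrays were 2-colour, with precipitated and input DNA in Cy3 and Cy5, per the labels. Scanner intensities were not used here, so the number of replicates limits the precision. Of 21800 probes, 109 had no value, 45 of them in the plates used; such wells were dropped.

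From each replicate its median over the 21691 valued probes was subtracted. Runs of probes at 1 or more in the mean of the replicates were found in ID order with Python 3.11.15, numpy 2.4.6, pandas 2.3.3 and scipy 1.17.1, after the run finder had been tested on simulated data. Runs could go on across plate ends. Alternatives changed centring, threshold, replicate, scale, plate handling and sign. Quartiles are over runs. Named were the 8 highest runs, the 5 largest and 5 smallest drops, the 4 largest replicate differences, the 4 most isolated and 3 probes on each side of the threshold. Members and rules were chosen with earlier results of these data known.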

Additional observations from a re-analysis of the deposited data

How the results depend on the processing

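The 8 results over all narrow runs (counts, share of high probes, median height, median bounding probe, share of middle peaks, share high in both replicates, median gap) were recomputed in 135 cases. They stayed within 1.5 times the count, or within 1 SD between the replicates, in 85 and moved in 50. This SD rests on the results of replicate I alone and replicate II alone. Those are themselves among the cases judged by it, so it is a rough measure. Joining runs and removing well-class medians were chosen after seeing the data. Without centring there were 247 narrow runs with 526 probes, 41.4% of high probes, a median height of 1.57, bounding probes at -0.41, 46.9% middle peaks, 40.3% high in both and a gap of 6. With the sign turned these were 71, 161, 32.3%, 1.17, 0.65, 52.6%, 38.5% and 5. The number of runs otherwise lay within 1.5 times 973. The share of high probes in narrow runs was 45.8% with centring on the mode, 45.2%, 56.4% and 57.7% with the threshold moved by -0.25, 0.25 and 0.5, 55.1% with 1 log unit in each replicate, 55.3% with plate medians removed, 39.3% with runs 1 probe apart joined and 47.9 to 52.4% on a single replicate. The median height was 1.79, 2.18 and 2.35 at these thresholds, 2.13 with 1 log unit in each replicate and 1.91 with plate medians removed. Bounding probes had a median of 0.38 with centring on the mode, 0.19 with the median of the plates used, 0.15, 0.38 and 0.51 at these thresholds, 0.35 with 1 log unit in each replicate, 0.16 with plate medians removed and 0.22 with runs joined. A higher threshold raises height and bounding level by construction. Middle peaks were 57.5% with runs joined and 58.8 to 63.6% on a single replicate. Members high in both replicates were 88.3% with the median of the plates used, 88.3% and 86.5% at the higher thresholds, 86.6% with the replicates at one scale, 88.3% with plate medians removed, 86.0% with runs joined and 85.7 to 86.6% for runs of a single replicate. The median gap was 2 with centring on the mode and at the lowest threshold, and 2 to 3 on a single replicate. Of 168 recomputed heights of the 21 named runs, 124 stayed within the spread, 37 moved and 7 changed sign. The spread is the SD between a run's heights in replicates I and II, so it is widest where these disagree most. By construction, a height on a single replicate stays within it unless its sign changes. Without centring, TB17C05 to TB17C06 stood at -0.27, TA75D04 to TA75D05 at -0.25, TA75F08 to TA75F09 at -0.20, TB64C04 to TB64C05 at -0.20, TB97E09 to TB97E10 at -0.15 and TB59H06 to TB59H07 at -0.071, which follows from 0 then lying above both replicate medians. TB59H06 to TB59H07 stood at -0.054 on replicate I alone and at 2.72 on II alone. For the other moves the cause was not tested. Dye effects could not be examined, since the arrays of a pair held the same values.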

Other observations

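The same rule was applied to probes outside the plates used. Plates TA21 to TA51 held 36 narrow runs with 83 of 2799 probes (2.97%), and plates TC17 to TC30 held 0 narrow runs among 1124 probes, of which 8 were high. Set PD held 18 narrow runs with 41 of 315 probes, beside 13.1% of probes in the plates used, and set TD held 2 with 5 of 96 probes (5.21%). These values are a description, with no test.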
